A study of Harpegnathos saltator with 22 samples.

Results

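ndl (LOC105181294), Chsy (LOC105191506), Past1 (LOC105190632) and Elk (LOC105188803) are 4 genes whose transcripts were lower after Kr-h1 siRNA in the ovaries of both worker and gamergate ants. They were chosen by their fold changes and adjusted p in the 2 knockdown comparisons, from 13693 genes in the authors' deposited table. The values of those comparisons are therefore given as a description, with no test. The comparison between castes was not named by that choice, but it uses the same GFP ants.

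The animals were Harpegnathos saltator, an ant in which workers can turn into gamergates, reproductive workers that lay eggs. Every ant received Dicer-substrate siRNA with a transfection reagent by injection into the head, and its ovaries were dissected 24 h later. The 22 ants, each a library of its own, fall into mature workers with siRNA against Kr-h1 (4), mature workers with GFP siRNA (5), mature gamergates with siRNA against Kr-h1 (7) and mature gamergates with GFP siRNA (6). Ages are not given in the labels used here. Polyadenylated RNA was sequenced, and the deposited table holds 3 comparisons, each with the average of the normalized counts, the log2 ratio of the groups, and a raw and an adjusted p. It gives no value per ant, so depth and the spread of single ants are unknown. Levels below are group means recovered from the mean count, the fold change and the group sizes, and each SE was recovered from the fold change and its p-value. Kr-h1 itself, the targeted gene, was not called in either caste. Its recovered level was 31.7 in Kr-h1 workers and 44.2 in GFP workers, and 45.8 in Kr-h1 gamergates and 38.2 in GFP gamergates. Of 13 germline genes found in the table all had counts, with vas at a mean of 7518 in the worker knockdown comparison and 6638 in the gamergate one.

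The 4 genes have separate known roles. In Drosophila, ndl (nudel) encodes a large serine protease that follicle cells secrete toward the egg during oogenesis. There it is needed for a sound eggshell and acts at the head of the protease cascade that ends in activation of Toll on the ventral side of the embryo. Chsy encodes chondroitin synthase, which lengthens the sugar chains of chondroitin proteoglycans in the extracellular matrix. Past1 encodes an EH-domain ATPase that acts in endocytic recycling, and in Drosophila it is required for germline development. Elk encodes a voltage-gated potassium channel of the ether-a-go-go family. Kr-h1 encodes a zinc-finger transcription factor that responds to juvenile hormone. Each of the 4 symbols belongs to a single gene of the RefSeq table, which lists 2 transcripts for ndl, 7 for Chsy, 1 for Past1 and 3 for Elk. Counts per gene do not separate those transcripts.

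ndl was highest in GFP gamergates among the 4 groups. Its recovered mean was 146.9 normalized counts in Kr-h1 workers and 424 in GFP workers, and 503 in Kr-h1 gamergates and 7360 in GFP gamergates. GFP gamergates thus stood far above the 3 other groups, and Kr-h1 gamergates stood near GFP workers. By the authors' deposited table ndl had a log2 fold change of -1.53 in workers (recovered SE 0.31, 95% interval -2.13 to -0.93, adjusted p = 0.000317, DESeq2). In gamergates the value there was -3.87 (recovered SE 0.51, 95% interval -4.87 to -2.87, adjusted p = 8.74e-11, DESeq2). Those differences are 2.89-fold in workers and 14.6-fold in gamergates. Only 6 of 11145 genes tested in gamergates had a lower fold change than ndl, which ranked 7 from the lowest there and 272 of 10577 in workers. The response in workers minus that in gamergates was 2.34 on the log2 scale, a value set by the contrasts that chose the gene and so not tested.

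Chsy was reduced by a similar amount in both castes. Its recovered mean was 112.1 in Kr-h1 workers and 318 in GFP workers, and 159.7 in Kr-h1 gamergates and 615 in GFP gamergates. By recovered means both Kr-h1 groups lay below both GFP groups, which was not the case for the other 3 genes. This rests on Kr-h1 gamergates minus GFP workers, which for Chsy came to -1.14 on the log2 scale (SE at most 0.98). For ndl it was 0.09 (SE at most 0.67) and for Past1 0.34 (SE at most 0.62), so the contrast with these genes is not settled. The log2 fold change in the authors' deposited table was -1.51 in workers (recovered SE 0.39, adjusted p = 0.00934, DESeq2) and -1.95 in gamergates (recovered SE 0.67, adjusted p = 0.0326, DESeq2). Its 95% intervals were -2.26 to -0.75 in workers and -3.26 to -0.63 in gamergates, so the gamergate value is the less precise one although more ants were compared there.

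Past1 had the same order of groups as ndl. Its recovered mean was 82.5 in Kr-h1 workers and 195.3 in GFP workers, and 273 in Kr-h1 gamergates and 893 in GFP gamergates. The deposited log2 fold change of the authors' table was -1.24 in workers (recovered SE 0.36, adjusted p = 0.0225, DESeq2) and -1.71 in gamergates (recovered SE 0.44, adjusted p = 0.00393, DESeq2). In workers, genes of low mean count tended to negative fold changes, and with that trend removed Past1 stood at -0.98 and was no longer called (adjusted p = 0.0872). The other 11 values of the 4 genes in the 3 comparisons stayed on their side of the 0.05 threshold without the trend.

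Elk had few counts in workers and more in gamergates. Its recovered mean was 4.30 in Kr-h1 workers and 25.0 in GFP workers, and 132.3 in Kr-h1 gamergates and 484 in GFP gamergates. Both gamergate groups lay above both worker groups. The authors' deposited table gives a log2 fold change of -2.54 in workers (recovered SE 0.58, adjusted p = 0.00250, DESeq2) and -1.87 in gamergates (recovered SE 0.66, adjusted p = 0.0389, DESeq2). Elk ranked 40 from the lowest of 10577 genes in workers and 60 of 11145 in gamergates. Its mean over the worker libraries, 15.8 normalized counts, was lower than that of 91.1% of the genes tested there, so its worker value rests on few reads per ant.

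**Figure D1:**
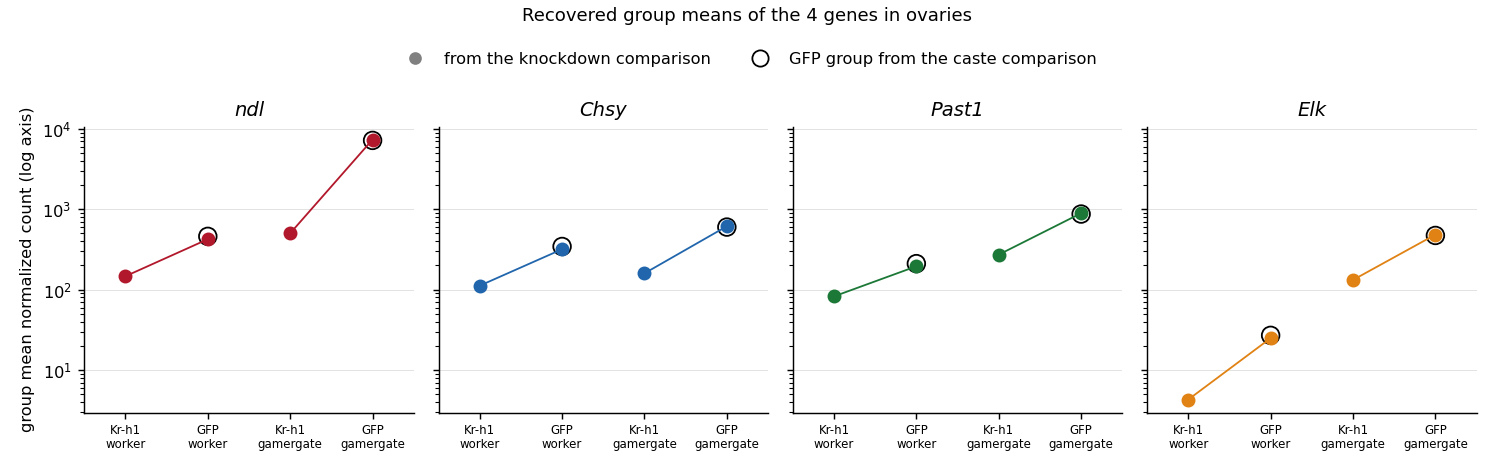
Recovered group means (normalized counts, log axis) of ndl, Chsy, Past1 and Elk in Kr-h1 and GFP workers and gamergates. Filled points come from the knockdown comparisons and open circles give the GFP groups from the caste comparison; in each caste the Kr-h1 point lies below its GFP point, from 4.30 against 25.0 for Elk in workers to 503 against 7360 for ndl in gamergates.

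All 4 genes were called lower in both knockdown comparisons, as their choice required. By the authors' deposited values, 5.9% of tested genes were called lower and 8.95% higher in gamergates, and 2.69% lower and 2.23% higher in workers. Of 10453 genes tested in both castes, 6 (0.0574%) were called lower in both and 3 (0.0287%) higher in both. The 2 lower genes besides the members were Acph-1, an acid phosphatase gene, and LOC105181487, which has no descriptive symbol. Acph-1 had deposited log2 fold changes of -1.39 in workers and -0.63 in gamergates in the authors' table. LOC105181487 stood there at -3.17 and -3.84, with means of only 25.0 in the worker and 19.7 in the gamergate comparison. The 3 higher genes, uex, LOC105188185 and LOC105189932, had deposited values of 0.54, 0.47 and 2.33 in workers and 0.31, 0.41 and 0.65 in gamergates in the authors' table.

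Elk in gamergates, with an adjusted p of 0.0389, was the member value nearest to the threshold, followed by Chsy in gamergates (0.0326) and Past1 in workers (0.0225), by the authors' deposited table. Just outside was thw, which was called in workers (-1.45, adjusted p = 0.0431, DESeq2) and narrowly missed in gamergates (-1.37, adjusted p = 0.0531, DESeq2) in that table. The polarity gene l(2)gl was called in gamergates (-0.59, adjusted p = 0.0468, DESeq2) and missed in workers (-0.65, adjusted p = 0.0591, DESeq2), by the authors' deposited table. The fold changes of thw are of the size of those of Past1, so the threshold does not separate these genes by the size of their change.

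**Figure D2:**
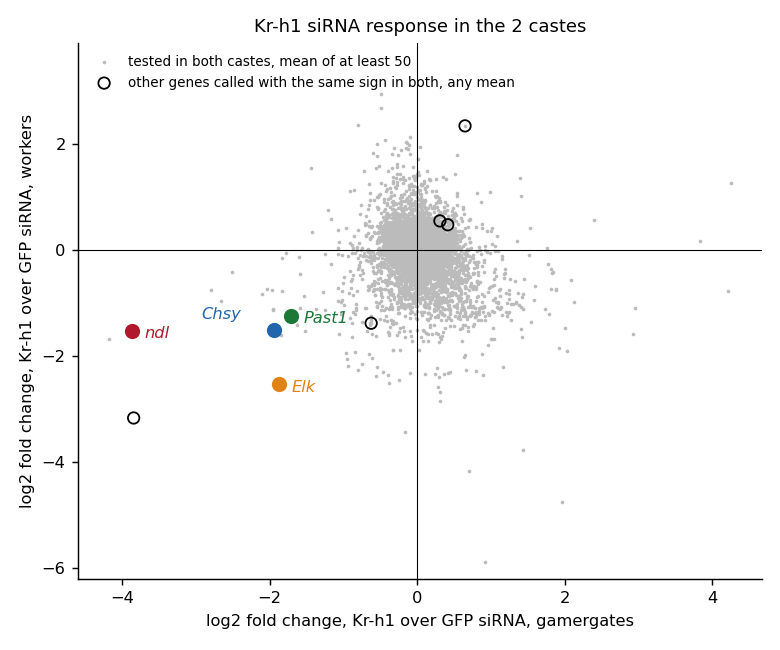
Log2 fold change after Kr-h1 siRNA in gamergates (x axis) and workers (y axis) from the authors' deposited table; grey points are genes tested in both castes with a mean of at least 50. The 4 genes are coloured and the other genes called with the same sign in both castes are ringed, whatever their mean; ndl lies at -3.87 and -1.53, at the left edge of the cloud.

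The castes were compared with GFP siRNA to ask how far these genes differ between workers and gamergates without the knockdown. In that comparison 3 of the 4 genes, ndl, Past1 and Elk, were called lower in workers, where 26.0% of all tested genes were called lower and 27.2% higher in the authors' deposited table. The recovered mean of ndl was 460 in GFP workers and 7178 in GFP gamergates, a deposited log2 fold change of -3.96 in the authors' table (recovered SE 0.43, adjusted p = 8.57e-19, DESeq2). Past1 had a mean of 210.8 in GFP workers and 872 in GFP gamergates, with a log2 fold change of -2.05 in the authors' deposited table (recovered SE 0.43, adjusted p = 1.05e-05, DESeq2). Elk had a mean of 27.0 in GFP workers and 472 in GFP gamergates, with a log2 fold change of -4.13 in that deposited table (recovered SE 0.57, adjusted p = 3.37e-12, DESeq2). Chsy did not pass, at 344 in GFP workers and 600.3 in GFP gamergates, with a log2 fold change of -0.80 and adjusted p = 0.351 (DESeq2) by the authors' deposited table. Its 95% interval of -2.19 to 0.59 leaves room for a decrease of the size seen for Past1. Because the GFP gamergates also served the gamergate knockdown comparison, a high mean in those 6 ants would lower both fold changes at once. Ovaries were sequenced whole, so fewer cells of a type and less RNA per cell cannot be told apart in any of these comparisons.

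**Figure D3:**
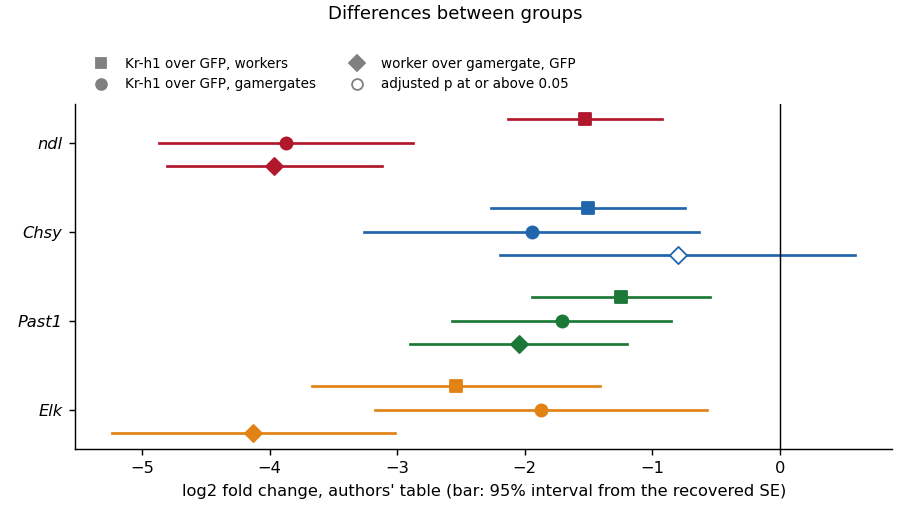
Log2 fold change of each gene in the 3 comparisons of the authors' deposited table, with bars for the 95% interval from the recovered SE. All intervals lie below 0 except that of Chsy between castes, which runs from -2.19 to 0.59 and whose marker is open.

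Across the 4 groups, the order of levels was the same for ndl, Past1 and Elk: Kr-h1 workers lowest, then GFP workers, Kr-h1 gamergates and GFP gamergates. For Chsy the order was Kr-h1 workers, Kr-h1 gamergates, GFP workers and GFP gamergates. No deposited comparison sets Kr-h1 gamergates against GFP workers, so their difference was added up from the other fold changes, and its SE is an upper limit that assumes independent groups. On the log2 scale Kr-h1 gamergates minus GFP workers came to 0.09 for ndl (SE at most 0.67), 0.34 for Past1 (SE at most 0.62), -1.14 for Chsy (SE at most 0.98) and 2.26 for Elk (SE at most 0.87). For ndl and Past1 the distance between these neighbours in the order is thus smaller than the upper limit of its SE. For Chsy it is only slightly larger than that limit, and for Elk it is well above it. For ndl, Past1 and Chsy these values therefore do not settle which of the groups is higher. Kr-h1 workers minus Kr-h1 gamergates came to -1.62 for ndl, -0.36 for Chsy (SE at most 0.77), -1.58 for Past1 and -4.79 for Elk. The caste difference of ndl was thus smaller with Kr-h1 siRNA than the -3.96 with GFP siRNA, and that of Elk was not, but these sums reuse the knockdown values and were not tested. Each comparison was normalized separately, and the GFP workers of the knockdown comparison came out at 0.929 times their level in the caste comparison (median over 8313 genes), the GFP gamergates at 1.02 times.

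The fold changes of the 4 genes had larger recovered SEs than those of most genes of like mean count. In gamergates the recovered SE of ndl exceeded that of 96.0% of the 500 genes nearest to it in mean count, whose median SE was 0.0998. The corresponding share was 95.8% for Chsy, 93% for Past1 and 96.4% for Elk. Between castes the shares ran from 90.0% for Elk to 97.4% for Chsy. In workers they were lower, at 79.0% for ndl, 86.8% for Chsy, 66.2% for Past1 and 71.8% for Elk. The spread between ants, counting error and a low mean in either group all enter such an SE, and the table does not separate them.

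ndl was set beside the other genes of its cascade and of the eggshell, from lists written with earlier results of these data known. Of 6 other dorsal-ventral genes found, none was called in workers and 2 fell in gamergates, with a list median of 0.08 in workers and -0.06 in gamergates, against 0.01 and 0.00 over all tested genes. The 2 were wbl, which in Drosophila acts in follicle cells upstream of the cascade (-0.71 with adjusted p = 0.00327, DESeq2, by the authors' deposited table), and CaBP1 (-0.25 there). The receptor gene Tl was at -0.48 in workers and 0.29 in gamergates in the deposited table, neither called. Of 8 other eggshell and follicle cell genes, 4 of 8 tested fell in workers, and 2 fell and 2 rose of 6 tested in gamergates. For both lists, the shares over all tested genes were 2.69% lower and 2.23% higher in workers. In gamergates they were 5.9% lower and 8.95% higher. The medians of the eggshell and follicle cell list were -1.10 in workers and -0.53 in gamergates. The eggshell and follicle cell genes that fell in workers were yellow-g, yellow-g2, tsl and mirr. In gamergates Cad74A and br fell, and mirr and fs(1)N rose. The follicle cell gene mirr, a homeobox factor, stood at -0.95 in workers and 0.71 in gamergates by the authors' deposited table. The eggshell pair yellow-g and yellow-g2 was not tested in gamergates, since the deposited table gives their fold changes (-7.54 and -3.59) with no p-value. Why these p-values are missing is not stated, so the 2 gamergate fold changes carry no measure of error. The pair belongs to a gene family, and whether reads were shared between copies was not tested. Between castes 4 of 7 tested eggshell and follicle cell genes were lower in workers and 1 was higher, with a median of -1.43. Among these br (-3.34), Cad74A (-3.21) and tsl (-1.43) were lower and mirr (1.78) was higher in the authors' deposited table. Of the 6 other dorsal-ventral genes 3 were lower and 1 higher, with a median of -0.13. The shares over all tested genes were 26% lower and 27.2% higher.

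Genes of chondroitin and heparan sulfate synthesis were set beside Chsy. Of 22 other glycosaminoglycan and proteoglycan genes tested, 1 rose and 1 fell in workers, and 3 rose and none fell in gamergates, with medians of -0.06 and 0.13. Over all tested genes 2.23% were called higher and 2.69% lower in workers, and 8.95% higher and 5.9% lower in gamergates. Chpf, the partner of chondroitin synthase in chain synthesis, was at 0.06 in workers and -0.20 in gamergates in the authors' deposited table, and was not called in either (adjusted p = 0.849 and 0.0546, DESeq2). In gamergates the glypican genes dally (0.40) and dlp (0.45) and the heparan sulfotransferase gene Hs3st-A (0.99) rose in the deposited table. In workers beta3GalTII, which builds the linker of the chains, rose (0.83) and wdp, a proteoglycan gene, fell (-1.12) in the authors' deposited table. Between castes, where 27.2% of all tested genes were called higher in workers and 26% lower, 8 of the 22 were higher and 7 lower. By adjusted p these began with sgl (-0.79), kon (3.83), Hs3st-A (1.68) and Sulf1 (-1.42) in the deposited table.

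Endocytosis genes other than Past1 that were called in gamergates all rose there. Of 30 others tested, none rose and 1 fell in workers, and 8 rose and none fell in gamergates, with medians of 0.07 and 0.06. The shares over all tested genes were 2.23% higher and 2.69% lower in workers, and 8.95% higher and 5.9% lower in gamergates. The gene that fell in workers was mgl, a megalin-type receptor, at -1.19 in the authors' deposited table. Ordered by adjusted p in the deposited table, the first in gamergates were the retromer gene Vps26 (0.49), the dynamin gene shi (0.38), the phosphatase gene Synj (0.40) and the endosomal sorting gene Stam (0.20). The yolk receptor gene yl was at 0.66 in workers and 0.04 in gamergates in that table, neither called. Between castes, where 27.2% of all tested genes were called higher in workers and 26% lower, 4 of the 30 were higher and 9 lower. The first of these by adjusted p were the membrane-shaping gene Amph (-1.06), AP-2alpha (-0.90), Rabex-5 (-0.46) and Synd (-0.69), by the authors' deposited table.

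Among potassium channel genes, 5 of 12 others rose in gamergates and none fell, while Elk was lower there. Of all tested genes 8.95% were called higher there and 5.9% lower. The 5 were Shal (0.77), slo (0.60), sei (0.51), KCNQ (0.99) and SLO2 (0.64) in the authors' deposited table, and the median of the 12 was 0.58. In workers none rose and 1 of 12 fell, the leak channel gene Ork1 (-1.05 in the deposited table), and the median was -0.32. There 2.23% of all tested genes were called higher and 2.69% lower. The closest relatives of Elk, eag and sei, were at 0.46 and -0.03 in workers in the authors' deposited table and not called, and eag was not called in gamergates (0.29). Between castes 7 of the 12 were higher and 1 lower in workers, with a median of 1.09, against 0.05 over all tested genes. The shares over all tested genes were 27.2% higher and 26% lower. Shal (2.17), Ork1 (1.77), Shab (2.23) and KCNQ (2.27) were higher in workers in the authors' deposited table, where Elk was lower at -4.13. The medians of nerve and muscle markers had the same signs as that of the 12, at 0.42 and 0.44 in gamergates, -0.16 and -0.98 in workers, and 0.58 and 2.43 between castes. Their part in the values of the potassium channel genes was not tested.

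**Figure D4:**
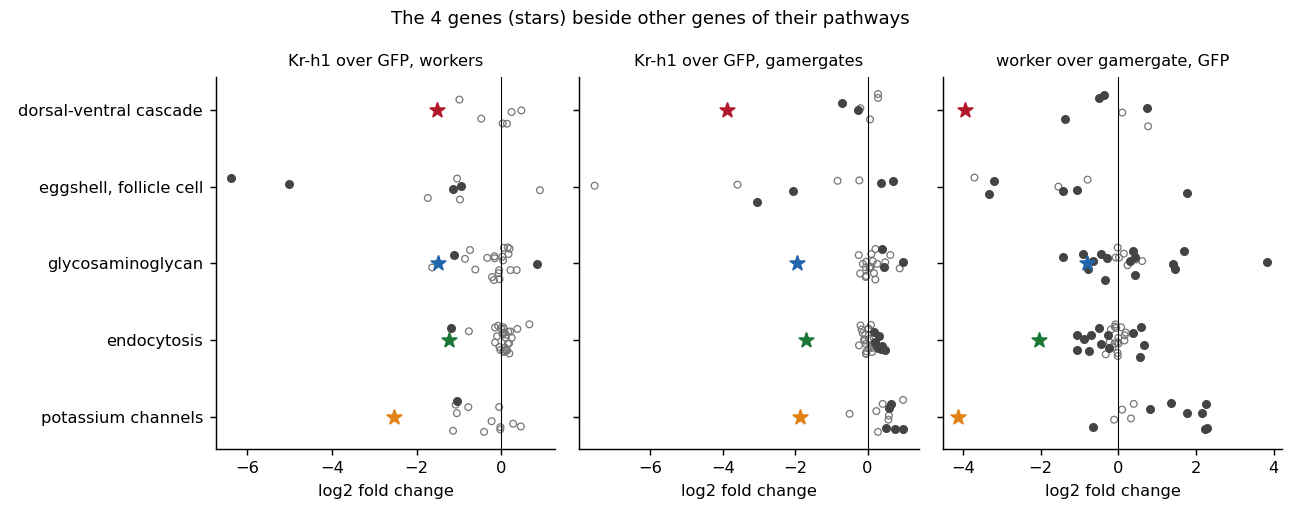
Log2 fold change of ndl, Chsy, Past1 and Elk (stars) and of the other genes of 5 lists in the 3 comparisons, filled where the adjusted p was under 0.05. The stars lie at or near the low end of their lists, and 11 of the 12 potassium channel genes other than Elk lie to the right of 0 in gamergates, with a median of 0.58.

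In the juvenile hormone and ecdysone list, to which Kr-h1 belongs, 2 of 22 tested genes rose and none fell in workers, and 2 rose and 3 fell in gamergates. Over all tested genes 2.23% were called higher and 2.69% lower in workers, and 8.95% higher and 5.9% lower in gamergates. The rise in gamergates is thus near the share over all genes. The steroid synthesis genes dib (1.43) and sro (1.20) were those that rose in workers, and in gamergates Hr3 (-1.83), Hr4 (-0.86) and br (-2.07) fell in the authors' deposited table. The medians were -0.06 and 0.08. The 3 that fell in gamergates were not called in workers, where they stood at -0.16, 0.27 and -0.98 in the deposited table.

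Summed levels of muscle, nerve and fat body markers were lower in Kr-h1 than in GFP workers and higher in Kr-h1 than in GFP gamergates. A few abundant genes carry much of the nerve, fat body and germline sums. The 4 genes, by their choice, were lower in both castes. For 15 muscle genes the summed level was 25671 in Kr-h1 workers and 39593 in GFP workers, and 20230 in Kr-h1 gamergates and 17745 in GFP gamergates, with none called in workers and 4 called higher in gamergates. For 24 nerve genes it was 9519 in Kr-h1 workers and 12835 in GFP workers, and 10565 in Kr-h1 gamergates and 9469 in GFP gamergates, with 1 lower of 20 tested in workers and 6 higher of 24 in gamergates. In workers ple (1472 with Kr-h1 and 3312 with GFP siRNA) and Ddc (813 and 2247) made up much of that fall, neither called. The gene cac was higher (3472 and 2428, not called), and 14 of the 20 tested had negative and 6 positive fold changes. For 10 fat body genes it was 12309 in Kr-h1 workers and 21622 in GFP workers, and 9984 in Kr-h1 gamergates and 6195 in GFP gamergates, with 1 lower of 9 in workers and 4 higher of 10 in gamergates. The fall of that sum in workers came from Tsf1 (5235 with Kr-h1 and 10736 with GFP siRNA, not tested) and apolpp (3638 and 7518, not called). Of the 9 tested in workers, 6 had negative and 3 positive fold changes. For 4 haemocyte genes it was 1761 in Kr-h1 workers and 2651 in GFP workers, and 3429 in Kr-h1 gamergates and 3456 in GFP gamergates, with 1 lower in workers and 1 higher in gamergates. For 13 germline genes it was 79942 in Kr-h1 workers and 62026 in GFP workers, and 92615 in Kr-h1 gamergates and 91050 in GFP gamergates, with none called in workers and 3 higher in gamergates. In workers much of that rise came from tral (24126 with Kr-h1 and 15460 with GFP siRNA) and exu (16906 and 11135), neither called. Of the 13 in workers, 7 had positive and 6 negative fold changes, with a median of 0.05. Beside the counts of called genes in these lists, 2.69% of all tested genes were called lower in workers and 8.95% higher in gamergates. No marker found was at 0 in any comparison. The part of the marked tissues in the values of the 4 genes was not tested.

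By fold change in all 3 comparisons, none of the 4 genes had another of the 4 as its closest match. Each had only 3 other members to match against 3656 other genes, so this says little about how alike the 4 are. Among the 4, the Euclidean distance between 2 genes over the 3 log2 fold changes was smallest for Chsy and Past1 (1.30) and largest for ndl and Chsy (3.70). For ndl and for Elk the nearest of the 4 was the other, at 2.25. Among 3656 other genes with a descriptive symbol and a mean of at least 50, the nearest to ndl were Jhbp2, named for a juvenile hormone binding protein (2.04), Cyp18a1, which inactivates ecdysteroids in Drosophila (2.54), and Acph-1 (3.34). The median distance from ndl was 5.78. The same genes were nearest to Elk, at 1.58 for Jhbp2, 1.93 for Acph-1 and 2.16 for Cyp18a1. Nearest to Chsy were Ptp36E (1.12), tsl (1.33) and Tektin-A (1.45), and nearest to Past1 were b6 (1.08), tsl (1.08) and Ptp36E (1.10). Jhbp2 had log2 fold changes of -1.13 in workers and -1.95 in gamergates in the authors' deposited table, but was called in neither (adjusted p = 0.242 and 0.369, DESeq2). tsl, which in Drosophila marks the ends of the egg from follicle cells, fell in workers (-1.14, adjusted p = 0.0154, DESeq2) and was not called in gamergates (-0.83, adjusted p = 0.261, DESeq2) in the deposited table. The likeness rests on 3 fold changes over 4 groups, 2 of which enter more than 1 comparison.

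None of the genes listed next to these 4 in the RefSeq table was called lower in both castes. That call was rare, made for 6 (0.0574%) of 10453 genes tested in both, so its absence says little about these places. That table gives no scaffold names here, so neighbours were inferred from its order, and a drop in start position was taken as the start of another scaffold. In the order of the RefSeq table for assembly Hsal_v8.6, ndl lies next to uif, Chsy between LOC105191507 and LOC105191505, Past1 next to Dh31, and Elk between Tm2 and Nop17l, and none of these overlaps its member. By that reading ndl and Past1 have no gene on their other side. LOC105191507 fell in workers (-1.62) and rose in gamergates (1.63) in the authors' deposited table, opposite in gamergates to Chsy beside it. It was also far higher in GFP workers than in GFP gamergates (4.20 in that deposited table), with recovered means of 169.5 and 9.21. The muscle gene Tm2, next to Elk, was at -0.98 in workers and 0.62 in gamergates, neither called, and was higher in GFP workers (3.47) in the authors' deposited table, where Elk was lower. The other 4 neighbours were not called in either knockdown comparison, with values from -1.07 for uif in workers to 0.62 for uif in gamergates.

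**Figure D5:**
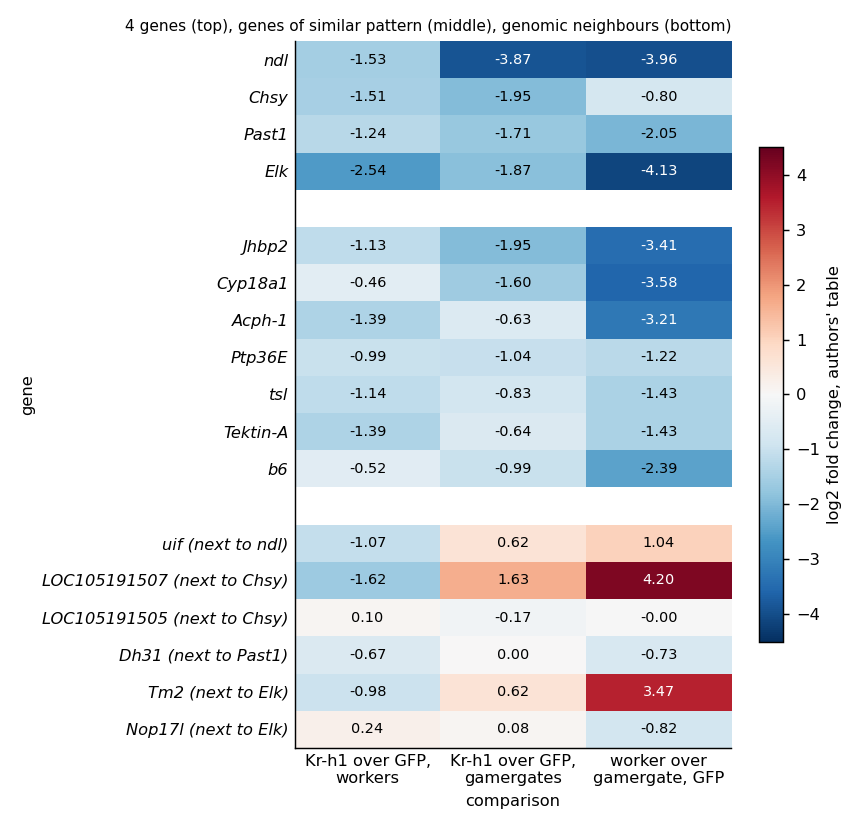
Log2 fold changes of the authors' deposited table for the 4 genes (top), the genes nearest to them in pattern (middle) and their genomic neighbours (bottom), as colour and number. The nearest genes are negative in all 3 columns, as they were picked to be, while LOC105191507 and Tm2 are positive between castes, at 4.20 and 3.47.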

How the data were processed

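Ovary RNA of 22 ants was compared by the authors in 3 contrasts, with bcl2fastq, STAR, featureCounts and DESeq2 per the submitters' processing notes. Versions, genome build and model were not given in these sources. The authors' deposited table holds, per contrast, the average of normalized counts, the log2 ratio of the groups, the p-value and its adjusted value, and 0 further value columns. A test on counts per ant was therefore replaced, as planned for this case, by the deposited adjusted p at 0.05. The deposited adjusted p matched a Benjamini-Hochberg adjustment over all genes that have one to within 0.0018. The labels do not say whether ants came from separate colonies, so p-values measure the spread between these ants.

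Group means were computed with the group sizes of the labels, treating each fold change as a ratio of group means, and the SE was taken as the fold change divided by the z value that its p-value stands for, as in a Wald test. Both steps, the adjustment and the trend removal (running median over 501 genes) were tested on simulated data. Named genes not called with the same sign in both castes were tested for a difference between the 2 knockdown responses by z, adjusted over 10453 genes. Python 3.11.15, numpy 2.4.6, pandas 2.3.3, scipy 1.17.1 and matplotlib 3.10.9 were used. Symbols came from the RefSeq table of Hsal_v8.6 (13681 of 13693 IDs matched); its build may not be the authors', so no coordinates are given.

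The 4 genes and the 11 lists were chosen with earlier results of these data known. Named genes are the 4, their neighbours, 3 genes nearest in pattern per gene (a mean of at least 50 and an adjusted p in all 3 comparisons), up to 4 called genes per list and comparison, the genes called with the same sign in both castes, Kr-h1, yellow-g and yellow-g2. Genes given outside that rule, such as vas, yl, Tl, Chpf, eag, SLO2 and thw, were picked for their role or after their values were seen.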

Additional observations from a re-analysis of the deposited data

Results flagged for a closer look

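For genes named beside ndl, Chsy, Past1 and Elk, the response to Kr-h1 siRNA in workers minus that in gamergates passed a z test on the recovered SEs in 16 of 60 cases (adjusted p under 0.05, over 10453 genes, of which 1093 passed). The 4 genes and the other 5 called with the same sign in both castes were chosen on both responses and are left out. Most of the 60 were named for a call in a comparison or for their likeness to the 4 genes, so the 16 are no independent sample of genes. The difference of the log2 fold changes was negative, a lower response in workers, for mirr (-1.66), LOC105191507 (-3.26), Ork1 (-1.63), Tl (-0.769), KCNQ (-2.05), wdp (-1.75), uif (-1.69), Shal (-0.998), dlp (-0.616) and kon (-2.52). It was positive for dib (1.43), sro (1.31), wbl (1.18), Hr4 (1.12), Hr3 (1.67) and beta3GalTII (0.742). Their adjusted p ran from 0.000459 for mirr to 0.0455 for kon.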

How the results depend on the processing

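The 4 genes kept their sign in all 59 recomputed values, and 55 stayed on their side of the threshold. At an adjusted p of 0.01, 2 of the 4 genes stayed called lower in gamergates (Chsy and Elk were lost), and Past1 was lost in workers. Past1 was also lost in workers with the trend on mean count removed. Elk, with a mean under 50 in workers, was left out of the alternative that sets this minimum. At that threshold of 0.01, genes called numbered 187 lower and 393 higher in gamergates and 53 lower and 66 higher in workers. List genes called numbered 3 lower and 17 higher in gamergates and 1 lower in workers. The list genes dib and sro also stayed called higher in workers, and beta3GalTII did not. Adjusting over every gene with a p-value, centring on the median, removing the trend and keeping genes with a mean of at least 50 left these counts within 1.5 times, and 291 of 330 counts per list stayed within that margin under the 5 alternatives. Group levels changed by less than the SE in all 24 cases, with the GFP level taken from the caste comparison or with equal group sizes. Leave-one-out fits were not run, since the table has no values per ant. No paired analysis was possible because the table has no values per ant. Depth per ant is unknown.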

Other observations

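Of 8250 genes tested in both castes with a mean of at least 50 in both, 14 had a log2 fold change of -1 or lower in both after Kr-h1 siRNA in the authors' deposited table. ndl, Chsy and Past1 were the 3 of them called in both, 7 were called in neither, and Elk is not among them because of its low mean in workers. With ndl, Chsy and Past1, the gene with a descriptive symbol among the 14 was Jhbp2. The lowest value in gamergates among the 14 belonged to LOC105191592, at -4.17 there and -1.67 in workers in the deposited table, a gene singled out after its values were seen.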
